A study of Mus musculus with 3 samples.

Results

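The cells described here were glioma cells of a mouse diffuse midline glioma that held transcripts of genes switched on around DNA replication but few transcripts of mitotic genes. They were picked from single-cell RNA sequencing counts by a gate on 21 genes. Barcodes of the tumour libraries had at least 500 UMIs (unique molecular identifiers, each one counted transcript), at least 300 genes and at most 15% mitochondrial UMIs. The 6 lineage genes Pdgfra, Olig1, Olig2, Sox10, C1ql1 and Lhfpl3 had to reach 10 per 10000 UMIs, and the microglial genes C1qa, C1qb and C1qc had to stay under 20 per 10000. At least 5 UMIs of the S-phase genes Rrm2, Clspn, Dtl, Exo1 and Brca1 were required, with fewer than 8 UMIs of Mki67, Top2a, Cenpf, Aspm, Ccnb1 and Ube2c and fewer than 2 UMIs of the hypoxia gene Car9. This gave 141 cells, 81 in tumour 1 and 60 in tumour 2, out of 23699 barcodes kept in the 3 libraries of the study. They are called S-gated glioma cells below.

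The study set up an orthotopic model of diffuse midline glioma, a childhood tumour of the brainstem, in immunocompetent mice. DIPG4423, 1 mouse glioma line, was given intracranially, at 100000 cells a mouse, to B6(Cg)-Tyrc-2J/J animals aged 6 weeks, and the tumours were taken 3 weeks later from untreated animals. The 2 tumour libraries are titled as mouse 1 and mouse 2, and the normal library came from brainstem of the same strain without tumour. Mice were perfused with saline, brainstem was ground, myelin was depleted on beads and erythrocytes were lysed before 10x Genomics 3' capture. The libraries held 151906460 UMIs in 12118 barcodes (tumour 1), 157114723 in 10728 (tumour 2) and 15035292 in 4354 (normal). There were 2 tumour libraries and no separate count of cultures or injections. Each p-value reflects only how far differences between classes of cells vary from one library to the other, which may be technical. The fit also draws each gene's spread towards a spread pooled over genes.

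During S phase a cell copies its genome once. The helicase MCM is loaded at origins by ORC, CDC6 and CDT1 in G1 phase, and is switched on at the start of S phase by CDC45, GINS and the kinases CDC7 and CDK2. E2F transcription factors, released from RB-family proteins at the G1/S boundary, drive most of the genes for licensing, nucleotide supply and fork proteins. Replication-dependent histones are made during DNA synthesis, and genes for spindle and chromosome segregation peak later, in G2 phase and mitosis. Oligodendrocyte progenitors, which express Pdgfra, Olig2 and Sox10, are a cycling cell type of the brain, and diffuse midline gliomas often resemble them.

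The S-gated cells made up 1.52% (exact 95% interval 1.21% to 1.88%) of the 5334 glioma-gated cells of tumour 1 and 2.47% (1.89% to 3.17%) of the 2428 of tumour 2. These Clopper-Pearson intervals cover counting error only, and the shares come from 1 library each, so the tumours were not tested against each other. After every cell was thinned to 5000 UMIs, with the S gate at 3 UMIs and the G2/M gate at 4, the shares were 1.08% of 4429 cells and 1.48% of 2096, with 905 and 332 shallower cells left out. In the normal library 41 barcodes passed the lineage gate, and 0 of 41 were S-gated, which by counting error alone allows a share of up to 7.32% (3 counts of 41). Their median was 1072 UMIs and the shallowest S-gated cell of the tumours had 2272, so at this depth the normal library could hardly show such cells.

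Most glioma cells with at least 5 S gene UMIs were outside the gate because they also held 8 or more UMIs of the mitotic genes. Of 615 cells in tumour 1 with at least 5 S gene UMIs, 534 had 8 or more UMIs of the 6 G2/M genes, which is 86.8% (83.9% to 89.4%). In tumour 2 it was 405 of 465, or 87.1% (83.7% to 90.0%). The G2/M limit is an absolute number of UMIs, and the cells it left out were deeper. Their medians were 33136 and 44349 UMIs, against 21495 and 24012 in S-gated cells. The part of depth in these shares was not tested. The gate kept the minority of cells with at least 5 S gene UMIs that held fewer than 8 G2/M gene UMIs. The plot of S against G2/M gene UMIs shows this. Within it, G2/M gene UMIs had a median of 4 in both tumours, and Top2a, the topoisomerase that relieves DNA tangles during replication and segregation, gave 59.8% of them in tumour 1 and 58.0% in tumour 2.

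**Figure D1:**
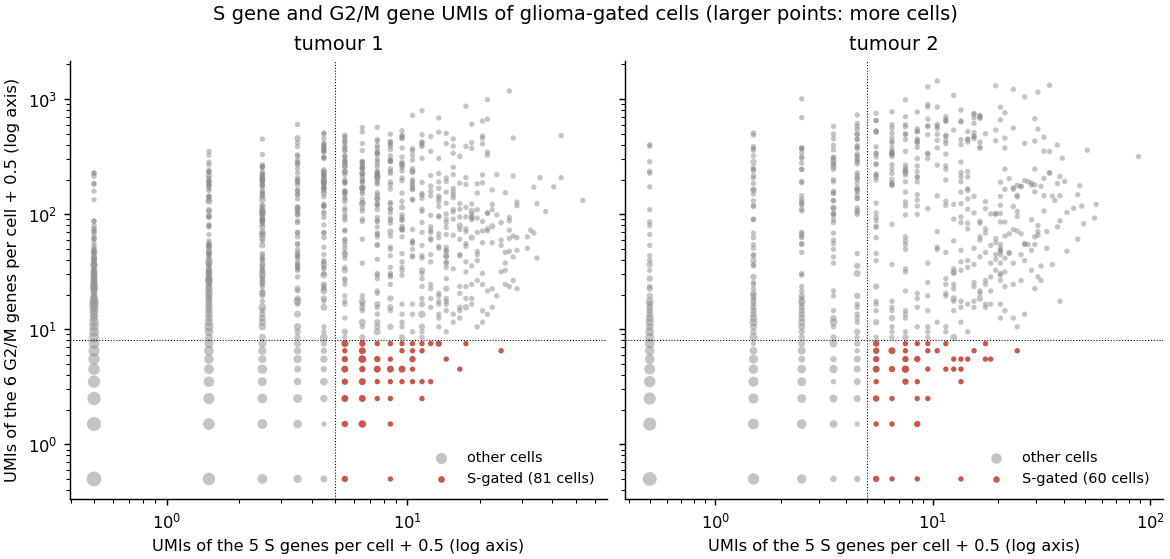
UMIs of the 5 S genes (x axis) and of the 6 G2/M genes (y axis) per glioma-gated cell with fewer than 2 Car9 UMIs, each plus 0.5 on log axes, for tumour 1 and tumour 2; point area grows with the number of cells at that pair of values and dotted lines are the gate limits. The 81 and 60 S-gated cells (red) lie under a much larger cloud of cells with 5 or more S gene UMIs and 8 or more G2/M gene UMIs (534 and 405 cells).

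Clspn lies at chr4:126556935-126593903 (plus strand), Dtl at chr1:191537356-191575544 (minus), Exo1 at chr1:175880581-175913489 (plus), Brca1 at chr11:101488764-101551955 (minus) and Rrm2 at chr12:24708241-24714146 (plus), all protein-coding genes on GRCm38. The 5 S genes, which chose the cells and are given without a test, did not contribute equally. Clspn, the claspin adaptor that relays the replication checkpoint, was found in 91.4% of the cells of tumour 1 and 88.3% of tumour 2. Dtl, the substrate receptor that marks CDT1 for destruction during S phase, was found in 70 of 81 and 57 of 60 cells. Exo1, a 5' exonuclease of mismatch and break repair, was found in 65.4% and 46.7%, and Brca1, a homologous recombination gene, in 64.2% and 53.3%. Rrm2, the small subunit of ribonucleotide reductase, was found in only 29.6% and 31.7%, and gave 4.45% and 4.94% of the S gene UMIs. No cell passed on Rrm2 alone: 0 cells in either tumour had 5 Rrm2 UMIs.

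The cells ranged from 5 to 24 S gene UMIs with a median of 7 in each tumour. In tumour 1, 18 cells sat at exactly 5 UMIs and 23 otherwise eligible cells at 4 were outside; in tumour 2 it was 15 and 18. At the G2/M limit, 14 and 7 cells held 7 UMIs, while 6 and 8 cells with 8 were outside. The gate asks for an absolute number of UMIs, so the cells were deep. Their median was 21495 UMIs in tumour 1 and 24012 in tumour 2, against 10740 and 14071 in non-cycling glioma cells (at most 1 UMI of the S genes and at most 1 of the G2/M genes) and 26763 and 37231 in G2/M-gated cells (8 or more G2/M gene UMIs). The S-gated cells summed to 2337666 UMIs in tumour 1 and 1584701 in tumour 2. No barcode of an S-gated cell was shared between libraries.

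The label of these cells as glioma cells was checked with genes outside the lineage gate. Xist, the RNA of the inactive X chromosome, was found in 79 of 81 cells of tumour 1 (97.5%) and 56 of 60 of tumour 2 (93.3%). Transcripts of the Y-linked genes on the list summed to 3.42 and 1.26 CPM (counts per 1000000 UMIs of the summed cells). Non-cycling microglia of the same libraries, at medians of 4193 and 9521 UMIs, had Xist in 4.48% and 6.86% of cells and Y-linked genes at 204 and 177 CPM. No S-gated cell had a Y-linked UMI without Xist.

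Some barcodes also carried transcripts of another cell type. At 10 or more per 10000 UMIs of such a type's markers, 3 of 81 S-gated barcodes stood out in tumour 1 and 2 of 60 in tumour 2, and a doublet caller marked 2 and 1. One barcode held 323 of the 332 endothelial marker UMIs of tumour 1, one held 129 of its 143 neutrophil marker UMIs, and one held 104 of the 125 neutrophil marker UMIs of tumour 2. All 9 microglial markers were detected, at a summed 85.6 and 200 CPM, against 135 and 220 CPM in non-cycling glioma cells and 18470 and 20380 CPM in non-cycling microglia. Results that these barcodes decide are given with and without them.

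Against the label, 1 group of genes made during DNA synthesis was not raised. Replication-dependent histone genes (26 listed) summed to 272 CPM in the S-gated cells of tumour 1 and 141 in tumour 2. That was no more than the 308 and 181 CPM of non-cycling cells and far under the 1250 and 821 CPM of G2/M-gated cells. Hist1h2bc and Hist1h1e gave much of these sums. In tumour 1 they were at 97.5 and 83.8 CPM in S-gated cells and 119 and 76.9 in non-cycling cells. In tumour 2 they were at 26.5 and 22.7 CPM against 68.4 and 29.5, and there the order of S-gated and non-cycling sums depends on them. Cells with both 5 or more S gene UMIs and 8 or more G2/M gene UMIs had 1788 and 1059 CPM. Most of these histone mRNAs are known to lack a poly(A) tail, on which the capture primes, and near-identical copies can split reads between genes. The part of either in these levels was not tested. The cells are therefore named by their gate and not by a phase.

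Genes of DNA replication separated the S-gated cells from non-cycling glioma cells. Over 8 lists of replication genes, 123 of 138 genes were higher, 0 were lower and the median log2 change was 1.84, beside a median of -0.03 over all genes tested. Among 15678 genes, 773 were higher (4.93%) and 436 were lower (2.78%) in S-gated cells at an adjusted p under 0.05, by edgeR's quasi-likelihood test with Benjamini-Hochberg adjustment on summed counts, with the library as a block. All 138 passed the low-count filter, and the 21 gate genes were left out. Non-cycling cells were defined by at most 1 UMI of the 5 S genes, so higher values of genes that vary with those 5 were in part built into the choice of classes. Without the block the totals were 229 higher and 17 lower. DESeq2 called 204 lower, and 219 were lower with the sum of tumour 2 left out.

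Origin licensing had the highest median of the 8 lists, with 13 of 13 genes higher and a median log2 change of 3.26. Cdc6, the ATPase that loads MCM, was at 25.7 CPM in tumour 1 and 39.1 in tumour 2, against 0.690 and 0.622 in non-cycling cells. Its log2 change was 5.45 ± 0.28 (SE, edgeR adjusted p = 3.85e-12). Here and below, SE is the absolute log2 change divided by the square root of the test's F statistic. It was not taken from the fit itself, and where few UMIs were counted it may understate the counting error. Mcm3, a helicase subunit, stood at 137 and 204 CPM against 7.98 and 12.9. It changed by 4.02 ± 0.10 (adjusted p = 4.51e-17). Both genes were higher in each tumour than in either non-cycling sum. Cdc6 lies at chr11:98907801-98923940 (plus strand) and Mcm3 at chr1:20802968-20820312 (minus strand). Mcm10, a scaffold of helicase activation, rose by 4.13, Cdt1, the partner of CDC6 in MCM loading, by 3.96, and Mcm5 by 3.69 on the log2 scale. All 11 origin firing genes were higher too (median 2.53). Among them Cdc45, which joins MCM in the active helicase, rose by 3.80, the firing factor Ticrr by 3.74, and the GINS subunits Gins1 and Gins2 by 3.35 and 2.82.

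The promoters of 4 genes that mark these cells are shown because genes of G1/S are known targets of E2F factors, and E2F-like motifs were searched in them. Each runs from 250 bases before to 30 bases after the start, 5' to 3' on the gene's strand, from RefSeq on GRCm38.p6. The start is that of the RefSeq entry, which lies 350 bases inside the GENCODE gene for Cdc6, 75 for Hells, 45 for Clspn and 0 for Dtl. Capitals mark any of the motifs TTTGGCGC, TTTCGCGC, TTTCCCGC, TTTGGCGG and TTTCCCGG, on either strand. Clspn and Dtl are 2 of the 5 S genes that chose the cells. Cdc6 rose most among licensing genes, and Hells, a chromatin remodeller, rose most among chromatin assembly genes.
Clspn, chr4:126556730-126557009, plus strand: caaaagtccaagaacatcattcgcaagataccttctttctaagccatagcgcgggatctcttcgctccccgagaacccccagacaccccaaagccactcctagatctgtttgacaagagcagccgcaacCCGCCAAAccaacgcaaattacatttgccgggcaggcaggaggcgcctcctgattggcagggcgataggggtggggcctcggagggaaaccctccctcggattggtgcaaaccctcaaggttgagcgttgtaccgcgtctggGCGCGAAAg
Dtl, chr1:191575515-191575794, minus strand: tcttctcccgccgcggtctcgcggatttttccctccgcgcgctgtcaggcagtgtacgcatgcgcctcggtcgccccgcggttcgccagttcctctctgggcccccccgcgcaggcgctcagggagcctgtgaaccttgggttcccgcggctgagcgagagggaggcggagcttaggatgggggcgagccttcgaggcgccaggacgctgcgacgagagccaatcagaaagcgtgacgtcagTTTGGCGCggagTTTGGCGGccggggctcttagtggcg
Cdc6, chr11:98907901-98908180, plus strand: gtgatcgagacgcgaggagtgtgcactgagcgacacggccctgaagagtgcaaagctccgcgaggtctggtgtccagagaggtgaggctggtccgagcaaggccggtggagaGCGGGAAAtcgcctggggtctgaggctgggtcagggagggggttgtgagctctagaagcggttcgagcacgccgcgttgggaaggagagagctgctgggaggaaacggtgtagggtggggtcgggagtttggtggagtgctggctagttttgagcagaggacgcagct
Hells, chr19:38930740-38931019, plus strand: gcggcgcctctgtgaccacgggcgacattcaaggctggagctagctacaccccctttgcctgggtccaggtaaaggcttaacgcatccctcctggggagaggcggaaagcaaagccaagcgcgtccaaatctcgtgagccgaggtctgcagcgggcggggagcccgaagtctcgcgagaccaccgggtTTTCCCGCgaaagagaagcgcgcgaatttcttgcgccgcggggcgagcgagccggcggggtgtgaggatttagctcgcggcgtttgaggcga

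In Clspn one match begins 121 bases before the start and one 21 bases after it. In Dtl they begin 8 bases before and 4 bases after it, 138 bases before it in Cdc6 and 62 bases before it in Hells. Over windows of 300 bases (to 50 bases after the start), 3.59% of 32851 promoters and 4.10% of 27025 genes held a match. Of the licensing genes in that table, 7 of 11 did (63.6%), as did 8 of 15 E2F and G1/S regulators (53.3%) and 9 of 22 fork genes (40.9%). Among nucleotide supply genes it was 0 of 15, and among G2 and mitosis genes 2 of 24 (8.33%). Of the 5 S genes of the gate, 4 were in the table and only 2 of these (50.0%), the printed Clspn and Dtl, held a match. A match is a run of letters and was not tested as a binding site, and Exo1 is named only.

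All 28 replication fork genes were higher, with a median log2 change of 2.03. Dscc1, of the clamp loader for cohesion, stood at 17.1 and 20.2 CPM against 1.08 and 0.760 and changed by 4.17 ± 0.32 (SE, edgeR adjusted p = 2.12e-09). Pclaf, a partner of the sliding clamp, was at 101 and 93.4 CPM against 8.97 and 9.95. The polymerase epsilon subunits Pole2 and Pole rose by 3.69 and 3.03 on the log2 scale.

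In nucleotide supply 13 of 16 genes were higher, with a median of 1.03. Thymidine kinase, Tk1, was at 20.1 and 28.4 CPM against 2.69 and 3.04, a log2 change of 3.04 ± 0.21 (edgeR adjusted p = 6.55e-10). Thymidylate synthase (Tyms) rose by 2.09 and the dUTPase Dut by 1.62. Of the E2F and G1/S regulators, 16 of 21 were higher (median 0.95). The activators E2f1 and E2f2 rose by 4.00 and 3.90, the repressor E2f7 by 3.86, and Rbl1, the RB-family protein p107, by 3.18.

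Chromatin assembly and repair genes were also higher. For chromatin assembly it was 14 of 15 genes, with a median of 1.68. Hells was at 86.0 and 156 CPM against 6.44 and 8.23, a log2 change of 3.94 ± 0.13 (edgeR adjusted p = 2.88e-15). The histone chaperone subunits Chaf1b and Chaf1a rose by 3.61 and 3.23, and Uhrf1, which carries DNA methylation through replication, by 3.33. For DNA repair it was 23 of 24 genes (median 2.14). Brip1, a BRCA1-bound helicase, rose by 4.89 and Ung, which removes uracil from DNA, by 3.53. Of 10 checkpoint genes 5 were higher. Chek1, the checkpoint kinase, stood at 20.96 and 37.2 CPM against 2.96 and 2.90 and rose by 3.18, Wee1 by 2.26, Etaa1 by 1.46 and Chek2 by 1.42.

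Outside these lists the largest rises included Slfn9, a schlafen family gene, at 20.5 and 29.7 CPM against 1.18 and 1.45. Its log2 change was 4.18 ± 0.24 (SE, edgeR adjusted p = 3.02e-11). Fignl1, an ATPase of recombination repair, rose by 3.70, and Ulbp1, a ligand of the immune receptor NKG2D, by 3.60. Ulbp1 was at 27.4 and 29.0 CPM in S-gated cells and at 2.04 and 2.63 in non-cycling cells.

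**Figure D2:**
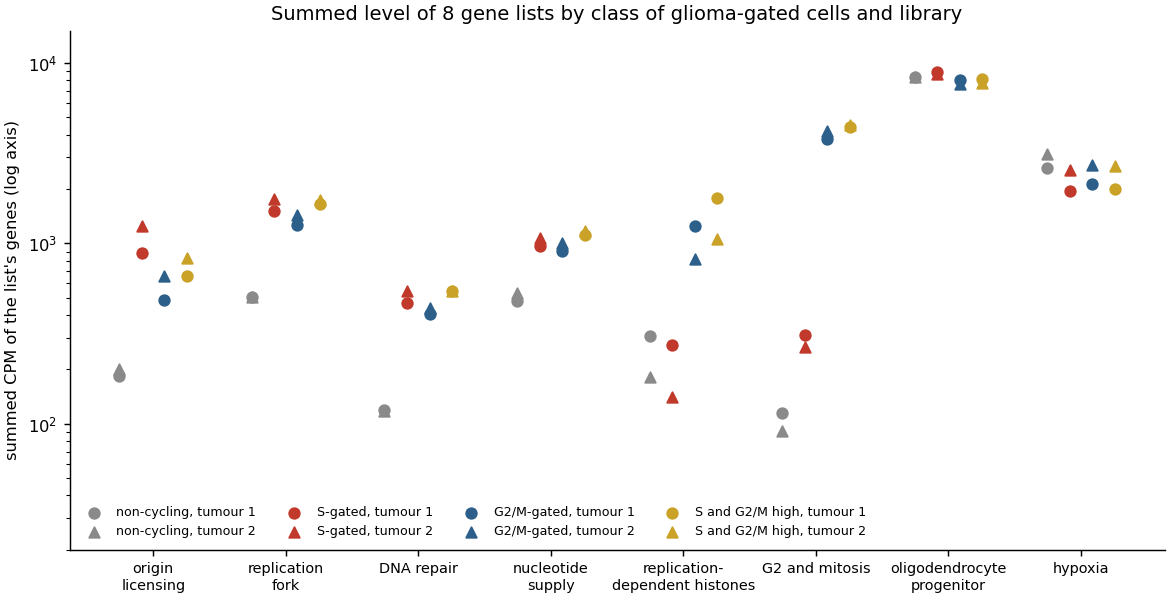
Summed CPM (log y axis) of 8 gene lists in classes of glioma-gated cells, 1 point for tumour 1 (circle) and 1 for tumour 2 (triangle); "S and G2/M high" cells are part of the G2/M-gated class. S-gated cells have the highest licensing sums (880 and 1241 CPM) but histone sums (272 and 141 CPM) near those of non-cycling cells and G2 and mitosis sums (311 and 266 CPM) between non-cycling and G2/M-gated cells.

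Mitotic genes were raised only in part, and the 6 gate genes limited this by choice. Non-cycling cells were held to at most 1 UMI of these 6 genes, so some rise over them was built in as well. Of 30 G2 and mitosis genes 16 were higher than in non-cycling cells (median 1.44). Their summed level was 311 CPM in tumour 1 and 266 in tumour 2, against 115 and 91.4 in non-cycling cells and 3803 and 4214 in G2/M-gated cells. Mybl2, a late cell cycle activator, rose by 3.06 on the log2 scale, the spindle checkpoint kinase Bub1 by 2.89, Ckap2l by 2.34 and Cdca8, of the chromosomal passenger complex, by 2.19. Of 25 histone genes tested, 0 were higher and 2 lower (median -0.21, or 0.0 with 2 genes at 0 UMIs put at their bound): Hist1h2bc fell by 0.59 and Hist1h1c by 0.50. The variants H2afx and H2afz rose by 0.78 and 0.63, and 1 of the 7 variants was lower.

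Genes of the hypoxia response were lower. Of 14 hypoxia genes (Car9 is not among them and was under 2 UMIs in both classes) 12 were lower and 0 higher, with a median log2 change of -0.99. The Car9 limit is an absolute number of UMIs, so it was stricter for the deeper S-gated cells. Lower values of genes that vary with Car9 may thus in part be built into the choice of classes. Ndrg1, a stress gene, was at 1.28 and 1.26 CPM against 10.2 and 8.29, and fell by 2.90 ± 0.45 (SE, edgeR adjusted p = 0.000102). At these CPM the S-gated sums held only a few Ndrg1 UMIs, so the size of its fall is uncertain. Ankrd37 fell by 1.59, the glucose transporter Slc2a1 by 1.33 and the mitophagy receptor Bnip3 by 1.10. Values in the S-gated cells lay under those of non-cycling cells of the same tumour for all 4. Among cells of 8000 to 40000 UMIs, which narrows the gap in depth, 7 of 14 were lower with a median of -0.65, and without the block 2 were.

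Among inhibitors of the cell cycle few genes passed the test. Of 7 CDK inhibitors 0 were higher and 2 were lower: Cdkn2b fell by 0.45 and Cdkn1b, p27, by 0.45. Cdkn2a, which encodes p16 and ARF, was at 426 and 440 CPM against 445 and 473 and did not pass the test (log2 change -0.10, edgeR adjusted p = 0.431). Trp53 was at 102 and 78.9 CPM against 96.9 and 71.7 (adjusted p = 0.708). Of 14 genes of p53 and its targets tested, 0 passed.

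No gene of the oligodendrocyte progenitor list passed the test. Of 18 such genes outside the gate 0 passed in either direction, with a median of -0.02, and the summed level was 8966 and 8739 CPM against 8388 and 8379. Growth signalling gave 1 of 14 genes, Spry4, an inhibitor of receptor tyrosine kinases, higher by 0.36. Pdgfa, the PDGF receptor ligand, was at 103.5 and 102.9 CPM against 97.9 and 93.4 (edgeR adjusted p = 0.658). Of 13 oligodendrocyte maturation genes 0 passed. B2m, of MHC class I, was at 203 and 213 CPM against 226 and 246 (adjusted p = 0.111), and Cd274, PD-L1, was near 0 in both classes at 0.428 and 0.631 CPM against 1.02 and 1.11.

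Some neural progenitor genes were higher and some astrocyte genes lower. Of 15 neural progenitor genes 4 were higher, among them the filament Nes by 0.76, Sox11 by 0.45 and Gap43 by 0.32 on the log2 scale, and 1 (Sox4, named after its value was seen) was lower. Nes was at 129 and 142 CPM against 79.3 and 78.0, above both non-cycling sums. Of 12 astrocyte genes 6 were lower: Gja1 fell by 2.04, Sox9 by 1.65, Aqp4 by 1.57 and Apoe by 0.63. Of 5 host astrocyte markers 3 were lower as well, a list that shares genes with the former. Its 5 markers were all detected in both classes and summed to 402 and 289 CPM in S-gated cells against 456 and 370 in non-cycling cells. In the non-cycling class 63 of 2737 cells of tumour 1 and 27 of 1067 of tumour 2 had a Y-linked UMI and no Xist, against 0 S-gated cells. The part of host cells in these changes was not tested. Of 13 polycomb genes 5 were higher, with Phf19 up by 2.15 and the methyltransferase Ezh2 up by 1.24. Ezh2 stood at 99.7 and 137 CPM against 42.8 and 55.4. Ezh1, its paralogue, fell by 0.72 and Suz12 rose by 0.53.

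Immediate early genes were lower in part. Of 13 immediate early genes 4 were lower: Hspa1a by 2.00, Junb by 0.80, Ier3 by 0.52 and Fos by 0.36. The bicarbonate transporter Slc4a4 fell by 2.30, the matrix protein Mgp by 2.04, Agt by 1.96, Sdc4 by 1.59, Snhg11 by 1.56 and Gadd45b by 1.43. Haemoglobin Hbb-bs fell by 5.12 and the neutrophil genes S100a9 and S100a8 by 1.91 and 1.51. With the barcodes that held another type's markers removed from all classes, Hbb-bs changed by 0.24 (edgeR adjusted p = 0.907) and the calls of S100a9 and S100a8 were lost. Endothelial markers, of which 3 of 6 had been called higher, then gave 0 calls. The 7 neutrophil markers summed to 61.2 and 78.9 CPM in S-gated cells and 225 and 206 in non-cycling cells, with Ly6g and Ltf at 0 in both S-gated sums. The 5 erythroid markers summed to 2.14 and 3.79 CPM against 70.6 and 139. The 6 endothelial markers summed to 142 and 10.7 CPM against 14.0 and 24.1, with Slco1a4 at 0 in both S-gated sums.

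**Figure D3:**
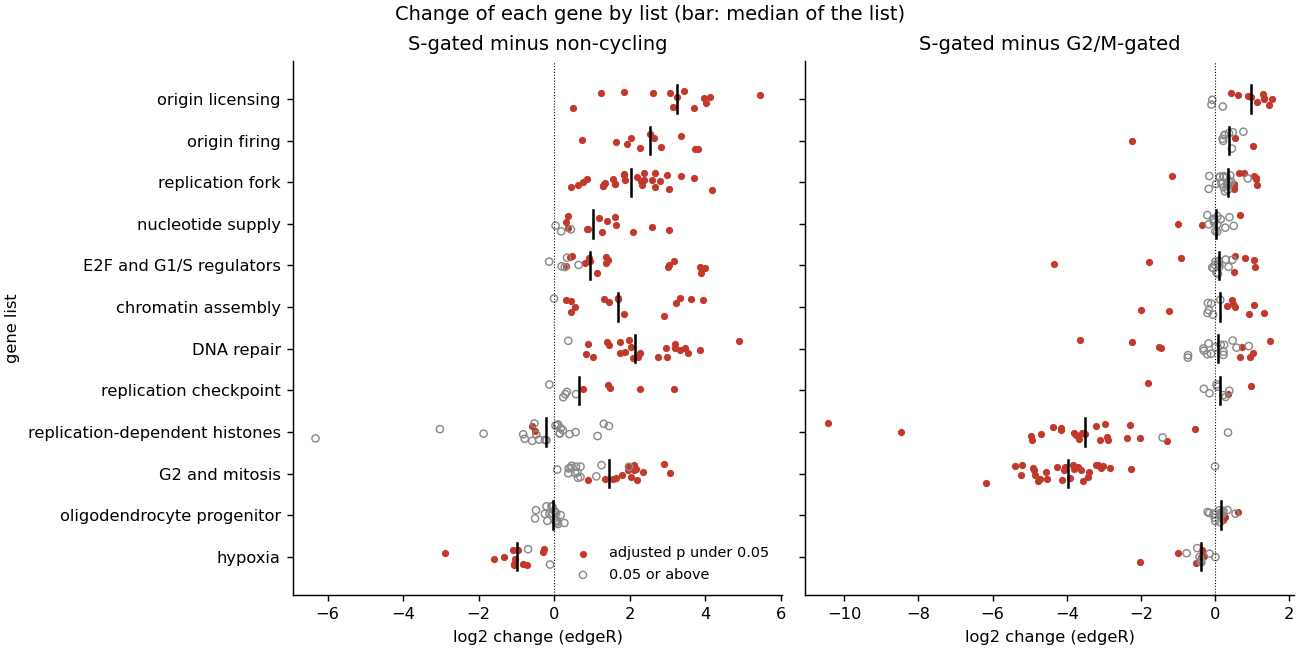
Log2 change of every tested gene (points, edgeR) by gene list, S-gated minus non-cycling cells (left) and S-gated minus G2/M-gated cells (right); red marks adjusted p under 0.05 and the bar is the list's median. Replication lists sit right of 0 on the left panel (medians 0.66 to 3.26), and on the right panel G2 and mitosis genes and histones sit far left (medians -3.98 and -3.52).

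Against G2/M-gated cells, many of which hold S gene transcripts themselves, licensing genes set the S-gated cells apart. Only S-gated cells had to hold 5 S gene UMIs. Of the 1209 and 714 G2/M-gated cells of tumour 1 and tumour 2, 406 and 154 held at most 1. Higher values of genes that vary with the 5 S genes were thus in part built into the choice of classes. Of 15678 genes, 282 were higher (1.8%) and 667 lower (4.25%) in S-gated cells, by the same edgeR test and threshold. Without the block it was 2 higher and 189 lower, and with tumour 2's sum left out 158 higher. Of the 138 replication genes 41 were higher and 14 lower (median 0.23, all genes -0.02). Licensing gave 10 of 13 higher, and the other 7 lists gave 1 to 9 genes higher each.

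Cdc6 stood at 25.7 and 39.1 CPM in S-gated cells and at 7.49 and 14.3 in G2/M-gated cells, a log2 change of 1.54 ± 0.19 (SE, edgeR adjusted p = 6.02e-06). Mcm4 was at 120 and 191 CPM against 42.8 and 65.6, and rose by 1.45 ± 0.09 (adjusted p = 5.78e-11). Both were higher in each tumour's S-gated sum. Mcm3, Orc1 (of the origin recognition complex), Cdt1 and Mcm6 rose by 1.31, 1.31, 1.28 and 1.14. The repair glycosylase Ung rose by 1.47, the WD-repeat gene Wdr76 by 1.29 and Pola2, of the primase complex, by 1.13. Hells rose by 1.30, Chaf1a by 1.06, Timeless by 1.09, Dscc1 by 1.10 and Gins2 by 1.01. E2f1 and Ccne1, the cyclin that partners CDK2 at the G1/S boundary, rose by 1.06 and 1.03, Chek1 by 0.96 and Topbp1 by 0.53. Igfbp7, higher by 1.13, was at 113 CPM in tumour 1 and 21.5 in tumour 2, and 215 of its 265 UMIs in tumour 1 came from the barcode with most endothelial marker UMIs. Without that barcode it was at 21.9 CPM in tumour 1, and with all mixed barcodes removed from both classes it changed by -0.37.

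A second set of replication genes was lower than in G2/M-gated cells. Ccna2, the cyclin of S phase and G2, was at 5.13 and 4.42 CPM against 82.5 and 112. It fell by 4.35 ± 0.19 (SE, edgeR adjusted p = 1.14e-13). Dbf4, the activator of CDC7, fell by 2.25, the repressor E2f8 by 1.78, Chek2 by 1.81, and the repair genes Neil3, Fancd2 and Gen1 by 3.63, 2.23 and 1.53. The chromatin proteins Hmgb2 and Asf1b fell by 2.00 and 1.25, Pclaf by 1.16, Tk1 by 1.00 and Rrm1, the large subunit of ribonucleotide reductase, by 0.36. Tk1 was at 20.1 and 28.4 CPM against 44.8 and 45.1. Pclaf, Tk1 and Chek2 were thus lower than in G2/M-gated cells and higher than in non-cycling cells.

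The G2/M-gated class mixes cells with and without S gene transcripts, so it was also restricted to cells with at most 1 S gene UMI, an alternative added after the data were seen. This split used the 5 S genes on both sides, so higher values of genes that vary with them were built into it. Of 13838 genes, 389 were higher (2.81%) and 439 lower (3.17%). Licensing then had 12 of 13 genes higher with a median of 2.49, and the fork list 26 of 28 with a median of 1.30. Tk1, Pclaf and Rrm1 turned from lower to higher, by 0.82, 0.41 and 0.59 on the log2 scale (edgeR adjusted p = 0.0263, 0.0209 and 0.0017). Asf1b changed by 0.29 (adjusted p = 0.681).

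**Figure D4:**
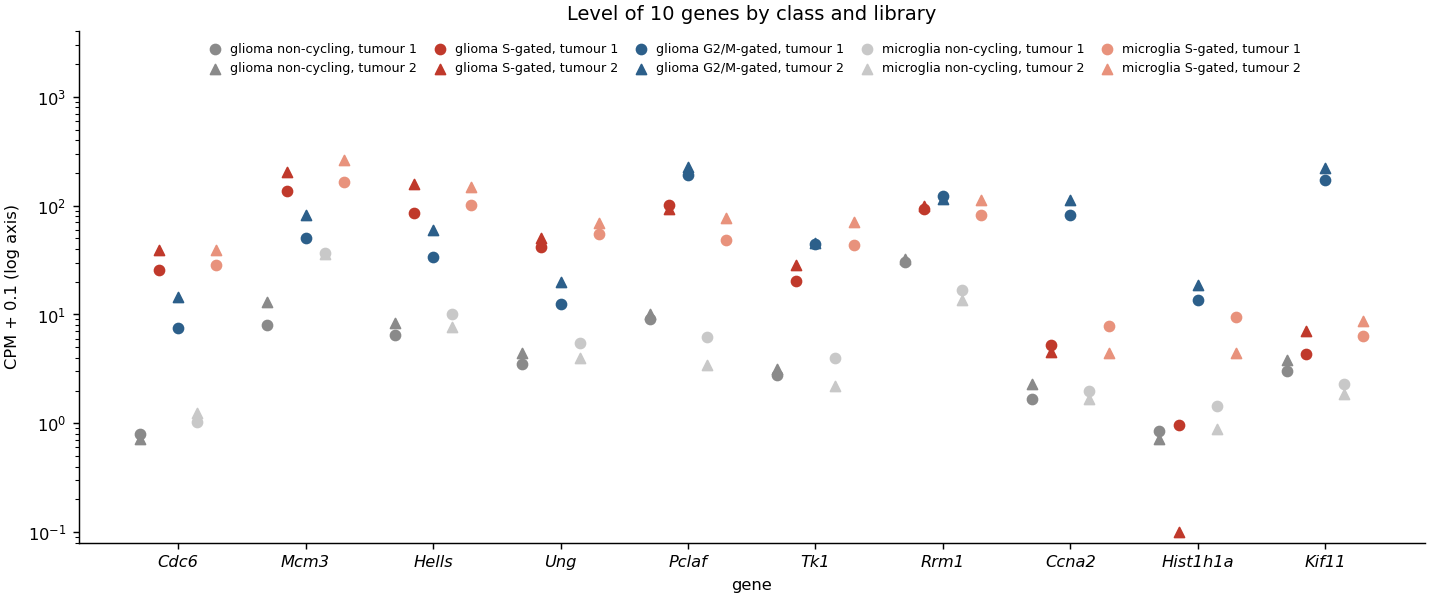
CPM plus 0.1 (log y axis) of 10 genes in non-cycling, S-gated and G2/M-gated glioma cells and in non-cycling and S-gated microglia, 1 point for tumour 1 (circle) and 1 for tumour 2 (triangle). Cdc6, Mcm3, Hells and Ung are highest in the S-gated class among glioma cells, while Pclaf, Tk1, Ccna2, Hist1h1a and Kif11 are highest in the G2/M-gated class.

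Mitotic genes and histones were lower than in G2/M-gated cells. Of 30 G2 and mitosis genes, none of them in the gate, 29 were lower with a median log2 change of -3.98. Kif2c, a microtubule depolymerase, was at 0.856 and 0.631 CPM against 47.8 and 61.4 and fell by 6.18 ± 0.31 (SE, edgeR adjusted p = 1.06e-12). At these CPM its S-gated sums held only a few UMIs, so its SE may be too small. The mitotic kinases Plk1 and Aurka fell by 5.39 and 4.90, the motors Kif11 and Kif14 by 5.23 and 5.48, and the spindle genes Hmmr, Troap, Depdc1a and Prr11 by 5.20, 6.12, 5.70 and 5.49. Cenpa, the centromeric histone, fell by 5.62. The gate limits 6 such genes, so low values of their neighbours in the cycle were built into the choice of cells.

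Of 25 replication-dependent histones 23 were lower (median -3.52, or -3.12 with 2 genes at 0 UMIs put at their bound). Hist1h1a, a linker histone, was at 0.856 CPM in tumour 1 and 0 in tumour 2 against 13.4 and 18.4. Hist1h2ab had 0 UMIs in both tumours, which at a floor of 3 counts a library is at least 6.45-fold lower in tumour 1 and 4.32-fold lower in tumour 2. Hist1h2bn fell by 4.95. The variants H2afx and H2afz fell by 2.49 and 1.14. Where G2/M-gated cells had at most 1 S gene UMI, 7 of 17 histones tested were lower.

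The CDK inhibitors of the INK4 family Cdkn2c and Cdkn2d fell by 1.75 and 1.44 and Cdkn1b by 0.55, so that 3 of 7 were lower. Cdkn2c stood at 42.4 and 65.0 CPM against 155 and 182. Of 18 progenitor genes 3 were higher: Megf11 by 0.62, Ncan by 0.26 and Ptprz1 by 0.22. Scaled by library size alone 7 were, and among cells of 8000 to 40000 UMIs 10 were. Hypoxia genes gave 6 of 14 lower, among them Ndrg1 by 2.02 (on few UMIs in S-gated cells), Ankrd37 by 1.00 and Ero1l by 0.51. At 8000 to 40000 UMIs 1 was lower. Spry4 rose by 0.39 and Etv5 fell by 0.31. Xist rose by 0.34.

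The same S and G2/M limits were applied to microglia, the resident macrophages of the brain, which come from the host (C1qa, C1qb and C1qc at 20 or more per 10000 UMIs and the lineage genes under 10). In all, 30 cells of tumour 1 and 39 of tumour 2 were S-gated microglia. Non-cycling microglia were set apart from them by UMIs of the same S and G2/M genes. Higher values of genes that vary with the S genes were thus in part built into the choice of microglial classes as well. Against non-cycling microglia 99 of the 138 replication genes were higher and 0 lower (median 2.20, all genes -0.18), where 400 of 14958 genes were higher (2.67%) and 242 lower (1.62%) by edgeR. With one S-gated microglial sum left out, 182 or 175 genes were higher, and 431 or 388 lower.

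Cdc6 was at 28.1 and 39.0 CPM in S-gated microglia against 0.922 and 1.15, a log2 change of 4.96 ± 0.39 (SE, edgeR adjusted p = 3.88e-05). Mcm10 rose by 5.31, Ccne2 by 4.50, Uhrf1 by 4.39, Tk1 by 4.28, Mcm5 by 3.50, Mcm6 by 3.43 and Ezh2 by 2.56. Of 23 histones tested 2 were higher, Hist1h1b by 2.83 and Hist1h3a by 2.72. Homeostatic microglial genes Tmem119 and P2ry12 fell by 0.93 and 0.79, the immediate early genes Egr1 and Junb by 1.68 and 1.26, and Ldha, lactate dehydrogenase, rose by 0.96.

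The glioma change was set against the microglial change in 1 model. Of 14958 genes 0 differed at an adjusted p under 0.05 by edgeR (0.0% in each direction), with 1392 at an unadjusted p under 0.05, and DESeq2 called 10 higher and 30 lower in glioma cells. For Cdc6 the glioma change was 5.45 and the microglial one 4.96, and for Mcm5 3.69 and 3.50. A call missed does not show that the changes were alike. The S-gated microglial sums held only 639605 and 691350 UMIs, and the model gave glioma cells and microglia 1 shared library effect. Tumour 1 minus tumour 2 deviations of S-gated glioma cells correlated at 0.324 with S-gated and 0.293 with non-cycling microglia. Within glioma cells the correlations were 0.71 (G2/M-gated) and 0.695 (non-cycling). The part of depth or of the shared effect in the missing calls was not tested.

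Among themselves the S-gated glioma cells were split by G2/M gene UMIs, which the gate had used. With 0 to 1 such UMIs there were 10 cells in tumour 1 and 9 in tumour 2, with 2 to 3 UMIs 20 and 10, and with 4 to 7 UMIs 51 and 41. Licensing genes summed to 965, 751 and 922 CPM over these bins in tumour 1 and to 1046, 1166 and 1300 in tumour 2. Fork genes summed to 1347, 1395 and 1595 CPM in tumour 1 and to 1417, 1437 and 1896 in tumour 2. Histones summed to 352, 277 and 260 CPM and to 135, 154 and 139. The licensing sums had no common order in the 2 tumours, while the fork sums were highest in the last bin of both. The sums of the first bin held only 198946 and 237087 UMIs.

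G2 and mitosis genes outside the gate summed to 156, 228 and 366 CPM in tumour 1 and to 152, 239 and 296 in tumour 2. The bins were cut by G2/M gene UMIs, so a rise of genes that vary with them was built into the split. Rrm2 was at 10.1, 12.9 and 11.9 CPM in tumour 1 and at 25.3, 4.05 and 16.4 in tumour 2, with no common order. Dtl was at 116, 82.0 and 76.5 CPM in tumour 1 and at 156, 138 and 133 in tumour 2. Both genes count towards the gate's limit of 5 UMIs, which asks a higher S gene CPM of a shallower cell. Cells of the first bin had medians of 18218 and 22448 UMIs, against 22334 and 24479 in S-gated cells with 2 to 7 G2/M gene UMIs. The part of depth in the order of Dtl was not tested. Between the last and the first bin 0 of 7343 genes differed by edgeR (0.0% in each direction) or DESeq2, with 328 at an unadjusted p under 0.05.

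The S-gated cells of tumour 1 and tumour 2 were set side by side. Of 4175 genes with at least 50 CPM in one tumour and 10 UMIs in both, 44 (1.05%) differed by 2-fold or more, 28 higher in tumour 1 and 16 in tumour 2, without a test. Nupr1, a stress-induced chromatin protein, was at 53.9 CPM in tumour 1 and 10.1 in tumour 2, a ratio of 5.34 (95% counting interval 3.16 to 9.63). The haem oxygenase Hmox1 had a ratio of 3.32 in S-gated and 3.56 in non-cycling cells, so that difference was not limited to the gate. Hist1h1e and Hist1h2bc had ratios of 3.69 and 3.68, Gsta4, a glutathione transferase, 2.95 and the neuropeptide gene Npy 2.90. In non-cycling cells the ratios went the same way: 2.09 for Nupr1, 2.605 for Hist1h1e, 1.75 for Hist1h2bc, 2.09 for Gsta4 and 1.21 for Npy.

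Igfbp7 had a ratio of 5.28, which was 1.00 without the mixed barcodes. Cdca7, a MYC- and E2F-regulated partner of HELLS, was higher in tumour 2, at 87.7 against 30.8 CPM, a ratio of 0.351 (0.260 to 0.470). In non-cycling cells it was at 12.6 and 6.04 CPM, a ratio of 0.480. Gm29521, Nab2, Nob1, Sall3, Mex3a and Gar1 were higher in tumour 2 with ratios of 0.420 to 0.431. In non-cycling cells the ratio was 0.364 for Gm29521 and 0.622 (Sall3) to 0.815 (Nob1) for the others.

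**Figure D5:**
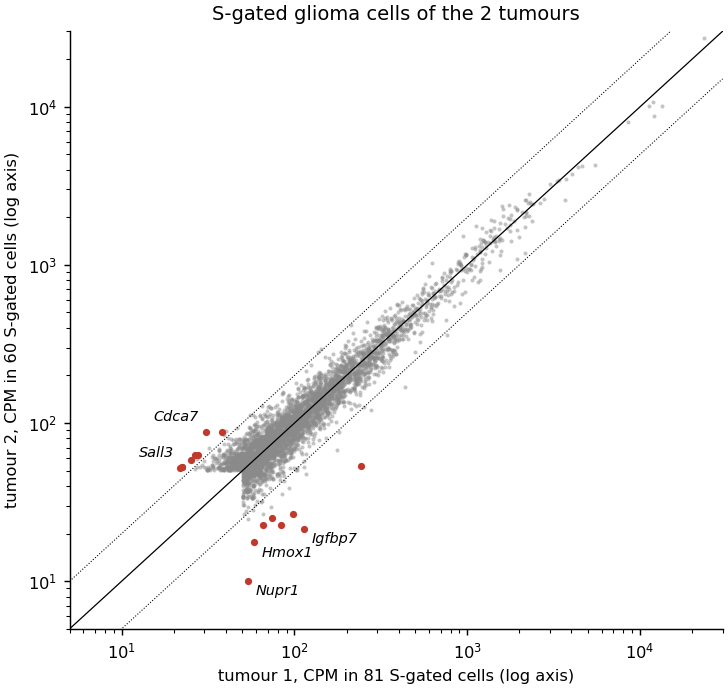
CPM in S-gated glioma cells of tumour 1 (x axis) and tumour 2 (y axis), log axes, for the 4175 genes compared; the solid line is equality, dotted lines are 2-fold, and red points are the 8 genes with the largest ratio each way. Most genes lie between the dotted lines, and 44 lie on or outside them.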

How the data were processed

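The deposited matrices held raw counts of UMIs for each gene in each barcode. Per the file headers, the authors used Cell Ranger 6.1.2, and the submitters' processing notes name the build mm10. The members and gene lists were chosen with earlier results of these data known. Barcodes kept numbered 10925, 9645 and 3129 (tumour 1, tumour 2, normal) at medians of 9012, 11443 and 2429 UMIs. Counts were summed per class and tumour library and tested with edgeR 4.0.16 (TMM, filterByExpr, quasi-likelihood) with library as a block, since every class of a library comes from 1 mouse. The check of this pairing, tumour 1 minus tumour 2 deviations over 3649 genes, gave correlations of 0.71 with G2/M-gated, 0.695 with non-cycling glioma cells and 0.324 with S-gated microglia. Residual degrees of freedom were 2 (3 in the microglia fit). Prior degrees of freedom, the weight of the spread pooled over genes, had a median of 19.24 in the fit of the glioma classes. The median was 8.17 in the microglia fit and 21.01 in the fit of late against early cells. Doublets were called with Scrublet in scanpy 1.11.5 (expected rate 8%) and kept; calls were 3.43%, 2.47% and 1.47% of kept barcodes. DESeq2 1.42.0 was an alternative. Named genes were the 4 called genes of each list with the largest change, the 10 largest rises and falls at 20 CPM or more, the 21 gate genes, 6 fixed genes and the 8 largest ratios each way between tumours; some were left out for length, and a few are not reported here. Gene lists numbered 40. Alternatives were no block, other scaling, no filter, doublets removed, stricter cells, matched depth, stricter (8 UMIs) or relative (3 per 10000) S gates, and each tumour alone; removal of mixed barcodes, the restricted G2/M class and leaving out 1 S sum were added after the data were seen. Coordinates are from GENCODE vM21 and RefSeq.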

Additional observations from a re-analysis of the deposited data

How the results depend on the processing

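Leaving out the block of library took the calls against non-cycling cells from 773 higher and 436 lower to 229 and 17, against G2/M-gated cells from 282 and 667 to 2 and 189, and in microglia from 400 and 242 to 243 and 49. DESeq2 gave 204 lower against non-cycling cells, 165 higher and 444 lower against G2/M-gated cells, and 635 higher in microglia. Without a low-count filter 682 were lower against non-cycling cells and 697 in microglia. Scaling by library size alone gave 480 higher against G2/M-gated cells and 116 lower in microglia. At 8000 to 40000 UMIs a cell it was 534 higher against G2/M-gated cells and 87 lower in microglia. With an S gate of 8 UMIs 253 were lower against non-cycling cells, and 150 higher and 428 lower against G2/M-gated cells. With the relative S gate it was 185 higher and 441 lower against G2/M-gated cells, and 439 were lower against G2/M cells with at most 1 S gene UMI. Leaving out one S-gated sum gave 613 to 621 higher and 219 to 291 lower against non-cycling cells, 158 to 190 higher and 461 to 548 lower against G2/M-gated cells, and 175 to 182 higher and 388 to 431 lower in microglia.

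The glioma change against the microglial change gave 0 calls each way, and under alternatives, higher and lower, 10 and 30 (DESeq2), 40 and 162 (no low-count filter), 1 and 6 (doublets removed), 1 and 4 (8000 to 40000 UMIs), 3 and 7 (mixed barcodes removed), 2 and 6 (S gate of 8 UMIs) and 4 and 4 (relative S gate), and 0 to 4 and 0 to 0 with one S-gated sum left out. Late against early cells gave 5 higher and 6 lower with no low-count filter, 1 higher at 8000 to 40000 UMIs, and 0 to 3 higher and 0 to 4 lower with one late sum left out. The share in tumour 1 was 0.619% with an S gate of 8 UMIs, 2.04% with the relative gate and 1.08% thinned, and in tumour 2 it was 1.11% with 8 UMIs, 3.33% at 8000 to 40000 UMIs and 1.48% thinned.

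Of 145 gene results 139 kept their direction in each alternative run for them (130 had the other S gates, 56 the restricted G2/M class). Without mixed barcodes Hbb-bs changed by 0.24. Igfbp7 against G2/M-gated cells changed by -0.053 at 8000 to 40000 UMIs, -0.37 without mixed barcodes, -0.47 with the relative gate, -0.72 and 1.80 without the S-gated sum of tumour 1 or tumour 2, and -0.69 in tumour 2 alone. Against G2/M cells with at most 1 S gene UMI, Rrm1, Asf1b, Pclaf and Tk1 changed by 0.59, 0.29, 0.41 and 0.82. The replicate block decided the most calls: 63 of the 145 were lost without it, 17 with DESeq2 and 0 with RLE scaling. The cause of these changes was not tested. With 141 cells, genes of a few CPM rest on few UMIs, and fits with one sum left out assume that the lone sum varies like the others.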
